A study of Mus musculus with 33 samples.

Results

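The genes described here copy chromosomal DNA before a cell divides. They were taken from a list of 44 genes of DNA replication, and a gene entered where at least 1 probe set of the array was annotated to its symbol alone. This held for 43 genes of the 18193 measured in the series. They were read by 92 probe sets, with 33 genes having several, up to 5, and 10 genes having 1, and each gene's score averaged its probe sets. Chaf1a, which encodes the large subunit of chromatin assembly factor 1, had no such probe set and is not analysed here.

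The study asked which genes of enteric neural crest cells (ENCCs), which invade the gut and form its nervous system, respond to GDNF, the ligand that signals through the receptor RET, and which genes set ENCCs apart from the gut around them. ENCCs came from C57BL/6 embryos at embryonic day 14.5 that carried a Wnt1-Cre transgene and a LoxP-controlled R26-YFP reporter. Wnt1-Cre acts in the neural crest, so that crest cells turn on YFP, and YFP-positive cells were sorted from the gut and plated on fibronectin. The cells of 1 gut filled 2 wells, and 1 well received 50 ng/ml GDNF. All ENCC wells, the untreated ones included, also held FGF and EGF at 20 ng/ml with the N2 and B27 supplements. Both growth factors can drive division of crest-derived progenitors in culture, so untreated wells were not free of mitogen. The labels do not give the length of the culture. The comparison tissue was whole gut, dissected from duodenum to anus, of wild-type C57BL/6 embryos at embryonic day 14.5, without sorting, culture or GDNF. It differs from the ENCC wells in the transgenes, in cell types, in sorting, in culture and in the added growth factors together, and these cannot be told apart. The characteristics of the whole gut arrays name ENCCs as the cell type, whereas their titles and source name gut, which was followed here.

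There were 33 arrays. Batch 1, as named in the titles, held 17 ENCC arrays of guts 1 to 9, and batch 2 held 8 ENCC arrays of guts 2, 3, 8 and 9 with 8 whole guts. Of the 18 ENCC RNAs, 7 were read in both batches. Litters, and the number of embryos behind a whole gut RNA, are not stated in the labels, so p-values measure the spread between these samples. Every deposited value is a score made from the rank of a probe set on its array, running from -4.08 to 4.08 around a median of 0, and a score of 1 lies above 84.1% of the array. The values also carry the pattern of an earlier step in which each probe set was scaled, inside a batch, on those 7 twice-read ENCC RNAs. Differences are therefore in score units and are not folds, levels of different genes are not compared, and a whole gut's score ranks its distance from the ENCCs against the spread of that probe set among those RNAs. A change common to all genes would not be seen.

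Replication starts when the origin recognition complex, with Cdc6 and Cdt1, loads the ring-shaped MCM helicase on DNA. The kinase pair of Cdc7 and Dbf4 and the factors Mcm10, Cdc45 and GINS turn the loaded ring into an active fork. DNA polymerases then copy the strands with the help of primase, the clamp Pcna, its loader Rfc and the single-strand binding complex Rpa, while Rrm1, Rrm2, Tyms, Tk1 and Dut supply or guard the nucleotides. Many of these genes are switched on before S phase by E2F transcription factors, which the retinoblastoma proteins restrain. In the embryonic gut, ENCCs divide while they colonise the wall, and part of them leave the cycle to become neurons and glia.

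Promoter sequences were set beside the arrays because most of the members varied together over the ENCC wells. A window from 250 bases before to 50 bases after the transcription start was held for 36 of the 43 members, from RefSeq on GRCm38.p6. An E2F-like site was searched on both strands as TTTCCCGC, TTTCGCGC, TTTGCCGC or TTTGGCGC. It was found in 14 of the 36 members (38.9%), against 3.29% of the 17492 protein-coding genes with a window of this length. They were Orc1, Cdc6, Cdt1, Mcm3, Mcm5, Mcm6, Mcm7, Gins3, Pola1, Pold1, Pole2, Rfc3, Lig1 and Uhrf1. The letters CCAAT were in 58.3% of the members and 42.3% of the genes, and TTTGAA was in 19.4% and 18.5%. A match describes the letters of the window and does not show that a factor binds there. The following 3 windows hold E2F-like matches, in capitals, in genes of licensing and of the helicase. Those of Mcm3 begin 19 and 38 bases after the start, which is counted as 0. Those of Mcm6 begin 110, 106 and 47 bases before it, and the first pair overlap, so that they form 1 run of capitals. The single match of Cdc6 begins 138 bases before it. The windows of Mcm3 at chr1:20820263-20820562 and of Mcm6 at chr1:128359656-128359955 lie on the minus strand, and that of Cdc6 at chr11:98907901-98908200 lies on the plus strand.
Mcm3: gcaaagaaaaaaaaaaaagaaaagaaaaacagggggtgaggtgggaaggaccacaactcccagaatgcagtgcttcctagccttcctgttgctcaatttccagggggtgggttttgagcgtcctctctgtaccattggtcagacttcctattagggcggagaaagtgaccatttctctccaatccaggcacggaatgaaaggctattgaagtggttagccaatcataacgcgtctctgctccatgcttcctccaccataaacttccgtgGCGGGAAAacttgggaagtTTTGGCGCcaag
Mcm6: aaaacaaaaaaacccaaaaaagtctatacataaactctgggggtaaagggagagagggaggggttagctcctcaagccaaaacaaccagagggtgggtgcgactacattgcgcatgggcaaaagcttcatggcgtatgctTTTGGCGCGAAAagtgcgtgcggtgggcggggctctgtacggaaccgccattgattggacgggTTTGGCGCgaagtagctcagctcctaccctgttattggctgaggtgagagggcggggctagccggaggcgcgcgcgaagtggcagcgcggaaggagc
Cdc6: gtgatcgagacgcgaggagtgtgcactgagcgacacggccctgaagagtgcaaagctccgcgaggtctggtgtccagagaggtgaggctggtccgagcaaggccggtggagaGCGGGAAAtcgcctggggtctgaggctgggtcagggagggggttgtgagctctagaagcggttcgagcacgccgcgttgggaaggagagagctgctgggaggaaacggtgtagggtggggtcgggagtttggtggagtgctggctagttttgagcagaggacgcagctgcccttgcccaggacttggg

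The next pair of windows belongs to Cdc7 and Rpa1, which changed with GDNF, and neither holds the E2F-like letters. Prim2 and Rfc2, which also changed, had no window. Of the members with a window, 22 had no match, so its absence in this pair does not set apart the members that changed. Cdc7, at chr5:106964072-106964371 on the plus strand, is the first of 2 starts listed for the gene, and the other has no match either. Rpa1 lies at chr11:75348334-75348633 on the minus strand.
Cdc7: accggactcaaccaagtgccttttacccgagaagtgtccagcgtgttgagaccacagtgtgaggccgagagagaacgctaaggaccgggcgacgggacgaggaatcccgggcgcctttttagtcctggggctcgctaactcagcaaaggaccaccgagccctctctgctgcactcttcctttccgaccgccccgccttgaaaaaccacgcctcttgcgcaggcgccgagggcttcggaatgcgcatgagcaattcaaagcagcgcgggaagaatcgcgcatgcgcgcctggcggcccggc
Rpa1: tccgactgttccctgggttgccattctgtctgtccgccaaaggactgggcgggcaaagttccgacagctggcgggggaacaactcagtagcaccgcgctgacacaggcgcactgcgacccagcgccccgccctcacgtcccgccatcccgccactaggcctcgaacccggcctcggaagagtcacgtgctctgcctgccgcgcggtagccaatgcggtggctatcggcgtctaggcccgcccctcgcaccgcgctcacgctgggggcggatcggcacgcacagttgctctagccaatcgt

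ENCC marker genes scored higher in the sorted cells than in whole gut, among them Sox10, a transcription factor of crest cells (1.66 and 1.55 in untreated and GDNF wells), and the receptor gene Ret (1.80 and 2.61). In batch 2 the mean score over 7 ENCC marker genes was -0.71 to 0.64 in untreated wells, -0.44 to 0.44 in treated wells and -1.61 to -1.52 in whole guts, and 6 of the 7 were higher in either kind of well than in whole gut. All 12 gut epithelium genes were lower in the wells, at -0.74 to 0.58 against 2.58 to 2.65 in whole guts. When the same RNA was read in either batch, its arrays correlated at 0.117 to 0.325, lowest for the untreated well of gut 3. This value does not say which of the 2 arrays departs, and the batch 2 array was left out as an alternative.

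Compared with whole gut, ENCCs scored lower for the replication genes. Of the 43 members, 30 were lower and 0 were higher in untreated wells (limma, adjusted p under 0.05 over all genes), where 17.7% of all genes tested were lower and 14.9% were higher. In GDNF wells 36 members were lower and 0 were higher, where 20.5% of all genes were lower and 20.5% were higher, 41.0% in either direction. For untreated wells that share was 32.6%. The differences of all 43 members were below 0 in either comparison, so at an unadjusted p under 0.05 limma also put 0 members higher. Their median was -1.11 for untreated wells, against -0.01 over all genes, and -1.50 for GDNF wells, against -0.02. Both comparisons use the same 8 whole guts, so they are not independent. A member past the threshold in 1 kind of well only is not thereby shown to differ between the wells, which the GDNF comparison tests. In a bulk sample, a smaller share of dividing cells and less transcript per dividing cell cannot be told apart.

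The groups were well separated for many members. The mean score over the members was 1.37 ± 0.07 (SD, n = 8) in whole guts, 0.20 ± 0.27 (SD, n = 4) in untreated wells and -0.15 ± 0.47 (SD, n = 4) in GDNF wells of batch 2. All 43 members scored above 0 in each of the 8 whole guts. In 30 members (69.8%) the 4 untreated wells all lay below the lowest whole gut, against 15.2% of all genes. The 4 GDNF wells did so in 34 members (79.1%), against 17.1%, and all 8 wells did so in 26 members (60.5%), against 7.77%. Whole guts also varied little, with a median SD over the members of 0.10 (0.03 to 0.22), against 0.15 over all genes. Untreated wells had a median SD of 0.63 and GDNF wells one of 0.75, where all genes had 0.75 and 0.71. Whole guts thus varied less than wells over all genes too. The scaling used RNAs of these same wells, so it can set their spread and the units of the whole guts. The gap between these SDs is therefore not read as a trait of the members. The fit took 1 spread for the 3 groups of a gene, so its SEs and p-values are not those of the wells alone. For Pcna the SD was 0.06 in whole guts, 0.59 in untreated and 1.62 in GDNF wells, with 1 SE of 0.45 for both comparisons. Where wells varied more than whole guts, the p-values can be too small.

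**Figure D1:**
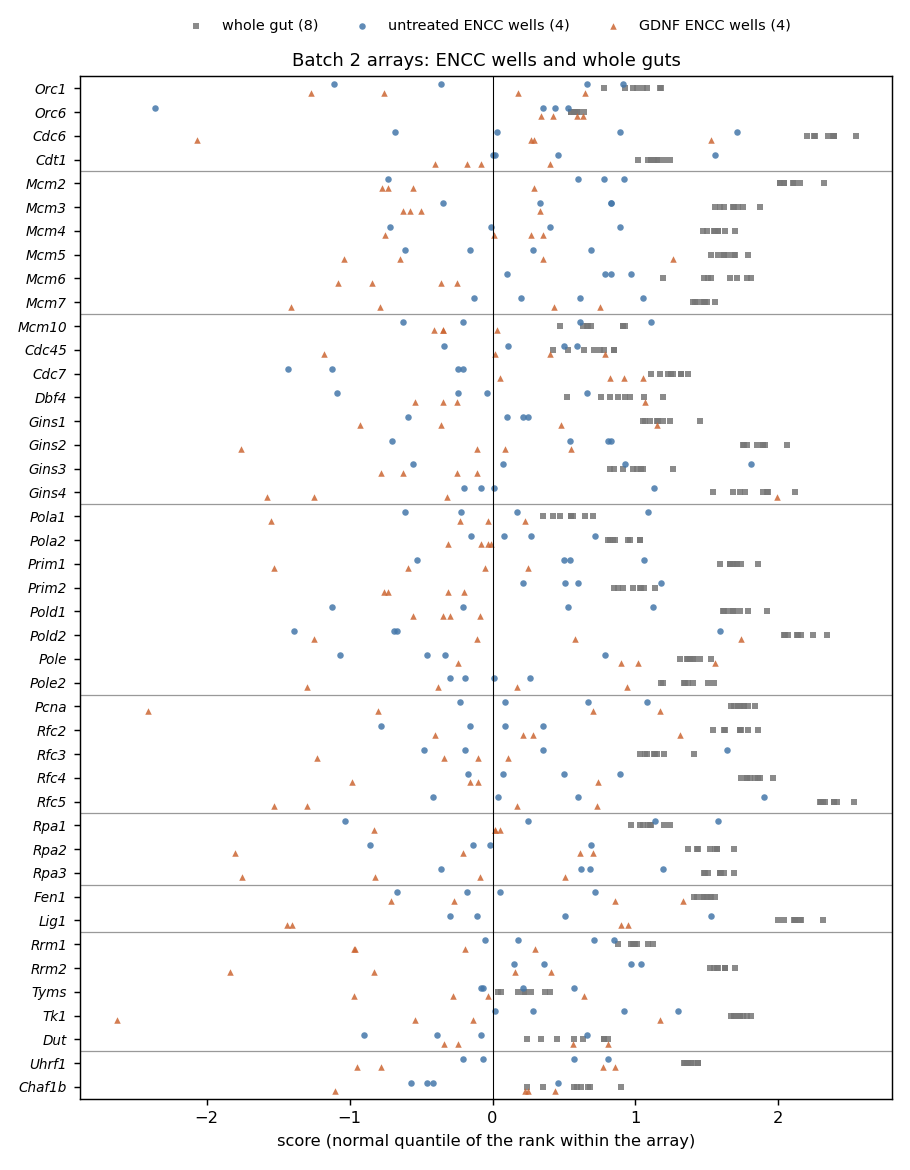
Scores of the 43 members, ordered by role (grey lines part the roles), on the 16 arrays of batch 2; the x axis is the score within the array, and each point is 1 array. Whole guts (grey squares) form narrow groups above 0, and in 26 members all 8 ENCC wells (blue circles untreated, orange triangles GDNF) lie to the left of them.

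Among the licensing genes, Cdc6, which helps load the helicase, had the largest difference. Its score was 1.71, -0.68, 0.03 and 0.89 in the untreated wells of guts 2, 3, 8 and 9, and 2.20 to 2.54 with a median of 2.36 in whole guts. All 4 wells lay below every whole gut, with a difference of -1.86 ± 0.48 (SE, adjusted p = 0.00574). In the GDNF wells the difference was -2.34 ± 0.48 (SE, adjusted p = 5.9e-04). Orc1, the largest subunit of the origin recognition complex, was lower in both kinds of well (-1.00 and -1.32). Cdt1, the partner of Cdc6 in loading, passed in GDNF wells (-1.20) and missed the threshold in untreated wells (-0.63, adjusted p = 0.0814). Orc6 passed in neither, at -0.84 and -0.09, and its untreated well of gut 3 scored -2.36 against 0.35 to 0.53 in the other 3.

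All 6 subunits of the MCM helicase were lower in both kinds of well, with differences of -1.70 to -0.91 in untreated and of -2.54 to -1.60 in GDNF wells, although Mcm7 lost its call in untreated wells without gut 3 or gut 9. Mcm2 scored 0.60, 0.78, 0.92 and -0.73 in the untreated wells of guts 2, 3, 8 and 9 and 0.29, -0.73, -0.77 and -0.56 in the GDNF wells. In whole guts it scored 2.01 to 2.32 with a median of 2.07. The wells and the whole guts did not overlap, and the differences were -1.70 ± 0.29 (SE, adjusted p = 1.9e-04) and -2.54 ± 0.29 (SE, adjusted p = 1.1e-06).

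Of the 8 genes that activate the helicase, 5 were lower in untreated wells and 6 in GDNF wells. Cdc7, the kinase that phosphorylates the MCM ring, scored -1.12, -1.43, -0.24 and -0.21 in untreated wells and 0.82, 0.92, 1.05 and 0.05 in GDNF wells, and 1.11 to 1.37 with a median of 1.26 in whole guts. The untreated wells were the lowest, and the GDNF wells lay between them and the whole guts without overlap. Untreated wells differed from whole gut by -2.01 ± 0.26 (SE, adjusted p = 1.7e-05), and GDNF wells by -0.54 ± 0.26 (SE), which did not pass (adjusted p = 0.107). Its partner Dbf4 passed in both (-1.07 and -0.90), as did Gins1, Gins2 and Gins4 of the GINS complex (-1.18 to -1.61 and -1.09 to -2.17). Mcm10 and Gins3 passed only the test in GDNF wells (-1.00 and -1.43), with -0.51 and -0.43 in untreated wells, and Cdc45 passed neither (-0.47 and -0.68). The 2 probe sets of Cdc45 disagreed, at -1.29 and 0.34 in untreated and at -1.54 and 0.17 in GDNF wells, and with the more reproducible one, the first, it was called lower in both.

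Among the polymerase and primase genes, 6 of 8 were lower in untreated and 7 of 8 in GDNF wells. Pold2, the second subunit of the lagging-strand polymerase delta, had the largest difference of any member in untreated wells. It scored -1.39, -0.69, 1.59 and -0.67 there, with the well of gut 8 far above the other 3, and 2.04 to 2.34 with a median of 2.14 in whole guts. The wells stayed below every whole gut, and the difference was -2.44 ± 0.47 (SE, adjusted p = 6.3e-04). Pold2 has 1 probe set, as do Cdc6, Rfc5 and Lig1, while Cdc7 and Mcm2 have 2. Averaging can shrink the difference of a gene whose probe sets disagree, so the sizes are not ranked on equal terms. Of the 3 probe sets of Rfc2, 1 had -3.12 in untreated wells. Prim1, the catalytic primase subunit, was lower in both (-1.30 and -2.18). Prim2, the other primase subunit, passed in GDNF wells (-1.48) and not in untreated wells (-0.36, adjusted p = 0.23). Pole, the catalytic subunit of the leading-strand polymerase, passed in untreated wells (-1.67) and not in GDNF wells (-0.59, adjusted p = 0.153).

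The clamp and its loader were lower in 4 of 5 members in untreated wells and in 5 of 5 in GDNF wells. Rfc5, a small loader subunit, scored 0.73, 0.17, -1.30 and -1.53 in the GDNF wells and 2.29 to 2.53 with a median of 2.36 in whole guts. With no overlap, its difference of -2.85 ± 0.40 (SE, adjusted p = 1.4e-05) was the largest of any member in GDNF wells. Pcna, the sliding clamp, scored 0.67, -0.23, 1.08 and 0.09 in untreated wells, 1.17, 0.70, -2.41 and -0.80 in GDNF wells and 1.67 to 1.84 in whole guts. Its differences were -1.34 ± 0.45 (SE, adjusted p = 0.0284) and -2.08 ± 0.45 (SE, adjusted p = 0.00103). The call in untreated wells was lost without gut 3 (-1.13, adjusted p = 0.103) or gut 9 (-1.24, adjusted p = 0.077), within a range of 1.7e-04 to 0.103 over 17 alternatives.

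Lig1, the ligase that joins Okazaki fragments, scored 0.90, 0.95, -1.40 and -1.44 in the GDNF wells of guts 2, 3, 8 and 9 and 2.00 to 2.31 in whole guts, a difference of -2.37 ± 0.43 (SE, adjusted p = 1.7e-04). The wells of guts 8 and 9 were the low ones, and none overlapped the whole guts. Fen1, the nuclease that trims these fragments, was lower in both kinds of well (-1.51 and -1.19). All 3 Rpa genes were lower in GDNF wells (-1.28 to -2.11), and Rpa2 and Rpa3 also in untreated wells (-1.60 and -1.04). Uhrf1, which brings the maintenance methyltransferase to new DNA, was lower in both (-1.11 and -1.41), and Chaf1b, a subunit of chromatin assembly factor 1, in untreated wells (-0.83) but not past the threshold in GDNF wells (-0.62, adjusted p = 0.093).

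Of the 5 nucleotide enzymes, 1 was lower in untreated and 3 were lower in GDNF wells. Rrm2, the regulated subunit of ribonucleotide reductase, scored 0.97, 0.15, 1.04 and 0.36 in untreated wells and 1.52 to 1.70 with a median of 1.60 in whole guts, a difference of -0.97 ± 0.33 (SE, adjusted p = 0.0286). In GDNF wells it scored 0.41, 0.16, -1.84 and -0.83, a difference of -2.13 ± 0.33 (SE, adjusted p = 3.4e-05). Without gut 3 or gut 9 its call in untreated wells was lost (-0.81 and -0.88, adjusted p = 0.0831 and 0.0761, range over 17 alternatives 7.1e-04 to 0.135). Tyms, which makes thymidylate, had the smallest difference of any member in untreated wells (-0.06, adjusted p = 0.88), and its whole guts, at 0.04 to 0.40, lay inside the range of the wells. That mean covers 4 probe sets that disagreed, at 0.28, 0.36, 0.07 and -0.96. In GDNF wells they gave -0.28, 0.24, -1.01 and -0.47, and with the most reproducible of them, the third, Tyms was called lower there.

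Leaving out the untreated well of gut 9 brought the number of lower members from 30 to 23, and leaving out each other sample in turn gave up to 31. The members that lost their call without gut 9 were Chaf1b, Dbf4, Mcm7, Orc1, Pcna, Pola2, Rpa3 and Rrm2, while Dut gained one. Orc1 and Chaf1b also lost theirs when certain other samples were left out, single whole guts among them. For GDNF wells the number was 34 to 38, with Dbf4 lost without gut 3, 8 or 9 and Pola1 lost without gut 9. The choice of probe set also changed calls. With the most reproducible probe set of each gene in place of the mean, Chaf1b, Dbf4, Pola2 and Rrm2 lost their calls in untreated wells (Rrm2 at -0.74, adjusted p = 0.135), while Cdc45, Cdt1, Mcm10 and Pola1 gained one. In GDNF wells Pola2 lost its call, and Cdc45, Chaf1b and Tyms gained one. Several lists of other cell types moved with the same contrast. Whole guts had mean scores of 1.31 to 1.39 for 12 smooth muscle and mesenchyme genes, 1.84 to 1.94 for 8 endothelium genes and 1.23 to 1.30 for 8 macrophage genes, where the wells of batch 2 had -0.92 to 0.61, -0.68 to 0.52 and -0.45 to 0.33. Genes of these lists were lower in 5, 7 and 6 cases in untreated wells, and in 11, 8 and 5 cases in GDNF wells. In the macrophage list 1 gene, Adgre1, went the other way in untreated wells (1.96, adjusted p = 0.0014). The list of 6 erythroid genes was less separated. Its whole gut means of 0.48 to 0.97 overlapped those of untreated wells (-0.57 to 0.51) and of GDNF wells (-0.50 to 0.74). In untreated wells 3 of these 6 were lower, in GDNF wells 2, and 0 were higher in either. Neuron genes were low in whole guts, with mean scores over 10 genes of -1.86 to -1.73 against -1.10 to -0.41 in untreated and 0.62 to 0.91 in GDNF wells. Of these 10, 8 were higher and 1 was lower in untreated wells, and 10 were higher in GDNF wells. No direct measure of RNA quality was used, and 8 ribosomal protein genes stood in as a possible sign of it. Their mean was 0.87 to 0.98 in whole guts, -0.37 to 1.17 in untreated wells and -0.94 to -0.06 in GDNF wells. In limma 6 of the 8 were lower in GDNF wells (median difference -1.67), and 0 were called in untreated wells (median -0.18), where 0 also had an unadjusted p under 0.05. The mean over 11 targets of p53, a factor that answers DNA damage and stress, was -0.98 to -0.85 in whole guts, 0.10 to 1.19 in untreated and -0.53 to -0.25 in GDNF wells. Of these 11, 10 were higher and 1 was lower in untreated wells, and 4 were higher and 2 lower in GDNF wells. The part of these cell types, of RNA quality and of the p53 response in the result was not tested.

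The second question was whether GDNF moved the replication genes within ENCCs. The score of the untreated well was taken from that of the GDNF well of the same gut and batch, which gave 1 difference for each of 9 guts. Of the 43 members, 2 were higher (Cdc7 and Rfc2) and 2 were lower (Prim2 and Rpa1), where 18.3% of all genes were higher and 13.2% lower. The members' median difference was -0.13, against 0.01 for all genes, with 14 members above 0 and 29 below, from -0.99 to 1.34. In either direction 31.5% of all genes were called.

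Cdc7 had the largest difference. In batch 1 it scored -1.16, -0.61, -0.14, -0.43, 0.04, -0.91, 0.54 and -2.13 in the untreated wells of guts 1 and 3 to 9. In the GDNF wells of guts 1 to 9 it scored 0.50, 0.94, 0.34, 0.37, 1.73, 1.26, 0.03, 0.42 and 0.29. All GDNF wells were above 0, and 6 of the 8 untreated wells were below it, with gut 8 as the highest. In batch 2 all 4 GDNF wells lay above all 4 untreated wells, as given above. Within gut 8 the batches went opposite ways, with the GDNF well at 0.42 and the untreated well at 0.54 in batch 1, and at 1.05 and -0.24 in batch 2, so that its difference was above 0 as their mean. The differences of guts 1 to 9 were 1.66, 1.95, 1.65, 0.51, 2.16, 1.22, 0.94, 0.58 and 1.34. Cdc7 rose in 9 of 9 guts, by 1.34 ± 0.58 (SD, n = 9, adjusted p = 6.2e-04), and was the only member with 1 sign in all 9 guts, which 17.8% of all genes had. Its probe sets gave 1.30 and 1.37, each higher in 8 of 9 guts. In batch 2 alone the difference was 1.46 and did not pass (adjusted p = 0.156, range over 17 alternatives 6.3e-04 to 0.156).

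Rfc2, a small subunit of the clamp loader, was higher by 0.77 ± 0.84 (SD, n = 9, adjusted p = 0.0463), in 6 of 9 guts. Its differences in guts 1 to 9 were -0.29, -0.07, 1.46, 0.80, 2.05, 1.68, 0.62, -0.18 and 0.89, so that guts 1, 2 and 8 lay just below 0 and gut 5 highest. In batch 1 its untreated wells of guts 1 and 3 to 9 scored -1.46, -0.35, -1.41, -0.88, -0.13, -0.80, 0.17 and -1.14. The GDNF wells of guts 1 to 9 scored -1.75, 0.15, 0.48, -0.60, 1.17, 1.55, -0.18, -0.30 and 0.87. In batch 2 the wells of guts 2, 3, 8 and 9 scored 0.35, -0.78, 0.09 and -0.16 untreated and 0.28, 1.31, 0.21 and -0.40 with GDNF. The 2 groups overlapped in both batches, and gut 1 was low in either well. Its 3 probe sets gave 1.15, 0.13 and 1.04, and the second and the third are of the x_at kind, whose probes may match other transcripts too. The call was lost without gut 3, 4, 5, 6, 7 or 9, without the batch 2 array of the untreated well of gut 3 (0.70, adjusted p = 0.0621), in batch 1 alone (0.90, adjusted p = 0.0554) and without the pairing of wells (0.77, adjusted p = 0.133). Over 17 alternatives its adjusted p ran from 0.024 to 0.662.

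Prim2, the large subunit of primase, scored 0.46, 0.48, 0.64, 0.69, 0.06, 1.12 and 0.18 in the untreated wells of guts 3 to 9 in batch 1 and -0.52, -0.67, -0.08, -0.18, -0.99, -0.82 and -0.22 in the GDNF wells of these guts. Every one of these untreated wells was above 0 and every GDNF well below it. In gut 1 the order was turned, at -0.21 untreated and 0.20 with GDNF, and the GDNF well of gut 2 scored -0.25. In batch 2 the wells of guts 2, 3, 8 and 9 scored 1.18, 0.60, 0.51 and 0.21 untreated and -0.31, -0.20, -0.76 and -0.73 with GDNF, again without overlap. The differences of guts 1 to 9 were 0.41, -1.49, -0.89, -1.15, -0.72, -0.86, -1.05, -1.60 and -0.67. Prim2 fell in 8 of 9 guts, with a mean of -0.89 ± 0.58 (SD, n = 9, adjusted p = 0.00875). Its 3 probe sets gave -0.94, -0.85 and -0.89.

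Rpa1, the large subunit of the single-strand binding complex, scored -1.02, 0.82, 0.86, 1.10, 0.82, 0.98, 1.89 and 0.17 in the untreated wells of guts 1 and 3 to 9 in batch 1. In the GDNF wells of guts 1 to 9 it scored -0.81, -0.41, -1.23, -0.51, -0.36, 0.37, -0.83, -0.87 and -0.27. Only the untreated well of gut 1 was below 0 in the first group and only the GDNF well of gut 6 above 0 in the second. In batch 2 the wells of guts 2, 3, 8 and 9 scored 0.25, -1.03, 1.58 and 1.14 untreated and 0.02, -0.83, 0.05 and 0.02 with GDNF, and gut 3 was the lowest of either group. The differences were 0.22, -0.23, -0.92, -1.36, -1.45, -0.44, -1.81, -2.15 and -0.77 in guts 1 to 9. Rpa1 fell in 8 of 9 guts, with a mean of -0.99 ± 0.77 (SD, n = 9, adjusted p = 0.0103), and its 2 probe sets gave -1.11 and -0.87. Rpa2 and Rpa3, which form the same complex, did not pass, at -0.04 (adjusted p = 0.937) and -0.66 (adjusted p = 0.179). In batch 2 alone neither Prim2 (-1.12, adjusted p = 0.228, range over 17 alternatives 0.00179 to 0.228) nor Rpa1 (-0.67, adjusted p = 0.501, range 0.0042 to 0.501) passed.

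**Figure D2:**
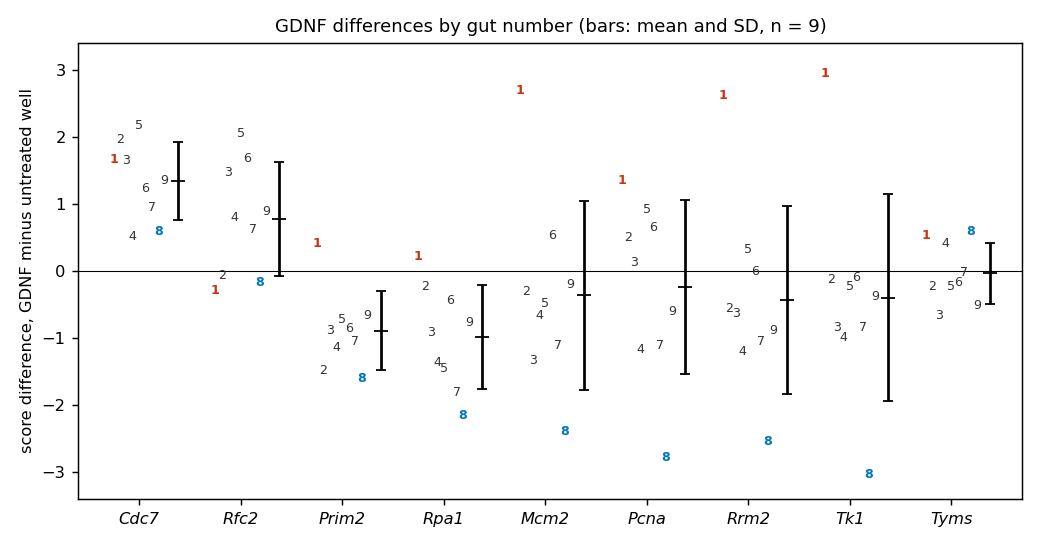
GDNF differences in score (GDNF minus untreated well, y axis) of the 4 members that passed the test and of Mcm2, Pcna, Rrm2, Tk1 and Tyms; each digit is a gut number, gut 1 in red and gut 8 in blue, and the bar gives the mean and SD of 9 guts. Cdc7 is above 0 in all 9 guts, whereas Mcm2, Pcna, Rrm2 and Tk1 run from gut 1 at the top to gut 8 at the bottom.

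None of the MCM genes, Pcna or the nucleotide enzymes was called by limma, and the guts differed in sign. Mcm2 differed by -0.37 ± 1.41 (SD, n = 9, adjusted p = 0.533), Pcna by -0.24 ± 1.30 (adjusted p = 0.68) and Rrm2 by -0.44 ± 1.40 (adjusted p = 0.445). Tk1, thymidine kinase, had the largest SD of any member, -0.40 ± 1.54 (adjusted p = 0.526), and Tyms the smallest, -0.04 ± 0.45 (adjusted p = 0.913). Tk1 has 1 probe set, whereas the Tyms score averages 4, whose GDNF differences were 0.04, 0.34, -0.47 and -0.06. Their SDs over guts were 1.15, 0.58, 0.97 and 1.34. Averaging probe sets that disagree can lower an SD, so the small value does not show that Tyms was steady over guts. For Mcm2 the guts 1 to 9 gave 2.68, -0.31, -1.34, -0.67, -0.48, 0.53, -1.11, -2.39 and -0.21, with 2 guts above 0. Pcna gave 1.34, 0.50, 0.13, -1.17, 0.91, 0.65, -1.11, -2.78 and -0.61, with 5 guts above 0. Rrm2 gave 2.61, -0.56, -0.63, -1.21, 0.32, -0.01, -1.05, -2.54 and -0.89, so in all 3 genes gut 1 was the highest and gut 8 the lowest. Tk1 gave 2.94, -0.13, -0.85, -0.99, -0.23, -0.10, -0.85, -3.04 and -0.38, with gut 1 alone above 0. Tyms gave 0.52, -0.24, -0.67, 0.41, -0.24, -0.18, -0.02, 0.58 and -0.51, with guts 1 and 8 as the highest pair. In batch 1, Tk1 scored -2.19 in the untreated and 0.75 in the GDNF well of gut 1, and 0.60 and -1.94 in those of gut 8. With such spreads a mean difference of this size could not be told from 0, which does not show that GDNF had no effect on these genes. At an unadjusted p under 0.05 limma put 3 of the 43 members higher and 4 lower, where 22.6% of all genes were higher and 18.5% lower, so the members' shares lay below those of all genes. None of the MCM genes, Pcna or the nucleotide enzymes had such a p. The further members it held lay just outside the adjusted threshold: Cdt1 (-0.64, adjusted p = 0.0565), Pold2 (0.65, adjusted p = 0.0717) and Rfc5 (-0.71, adjusted p = 0.0928).

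The GDNF difference varied between guts. The median GDNF difference over the members was 1.34, -0.23, -0.49, -0.52, 0.10, 0.40, -0.67, -1.31 and -0.19 in guts 1 to 9. In gut 1, 40 of the 43 members were higher in the GDNF well. In gut 8, 40 were lower. The other 7 guts lay between -0.67 and 0.40, 3 guts in all were above 0 and 6 below, and the SD of the 9 medians was 0.75. Of the 43 members, 31 had their highest difference in gut 1 and 27 their lowest in gut 8. Over all genes the median difference was 0.00 in gut 1 and 0.04 in gut 8. How many of all genes had their extremes in these guts was not counted, so these counts are not read as particular to the members. The median SD of a member over the 9 guts was 0.97, against 0.84 for all genes.

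The single wells show where these differences lie. In batch 1 the mean score over the members was -1.02 in the untreated well of gut 1, the lowest of all ENCC arrays, where only 1 of 43 members was above 0, and 0.33 in its GDNF well. In gut 8 it was 0.47 untreated and -0.96 with GDNF. The other untreated wells ran from -0.40 in gut 9 to 0.84 in gut 3, and the other GDNF wells from -0.77 in gut 7 to 0.93 in gut 5. Gut 8 was read again in batch 2, at 0.40 and -0.77, and its mean difference was -1.43 in batch 1 and -1.17 in batch 2. Gut 9 gave -0.11 and -0.12, and gut 3, whose untreated arrays correlated least, gave -0.60 and 0.05. Both wells of gut 1 were read in batch 1 alone, so its difference has no repeat.

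**Figure D3:**
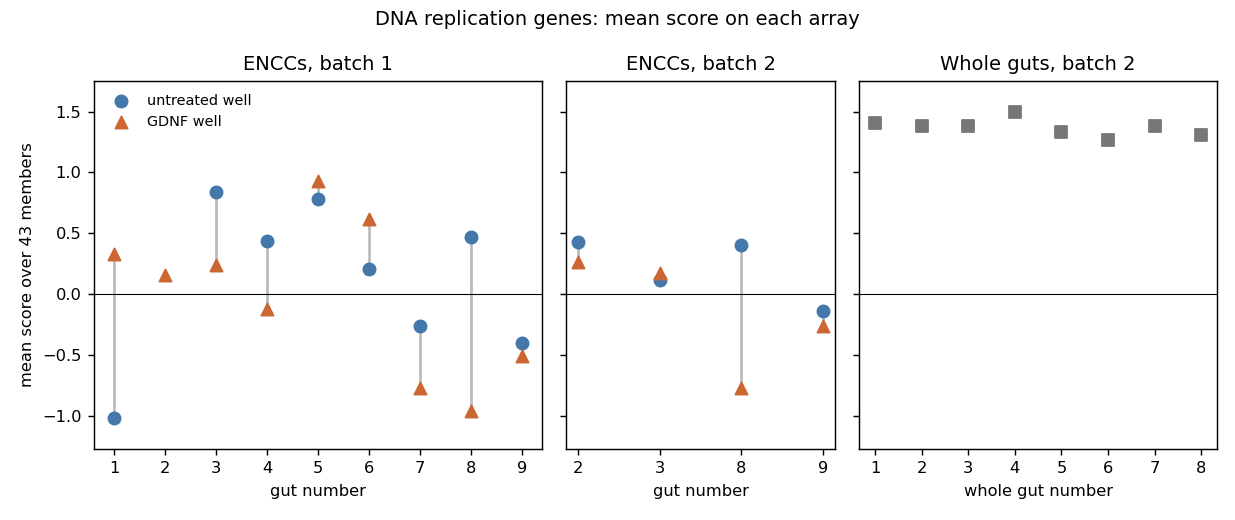
Mean score over the 43 members on each array (y axis) by gut number (x axis), with the untreated (blue circle) and GDNF (orange triangle) wells of a gut joined by a line; the right panel gives the 8 whole guts. The wells of guts 1 and 8 differ most and in opposite directions, and all whole guts lie between 1.27 and 1.50, above every ENCC well of batch 2. Batch 1 is scaled on its own and is not compared with the whole guts.

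Among single guts left out, gut 1 and gut 8 moved the count of calls most. Without gut 1, 2 members were higher and 8 were lower, where 18.5% and 13.9% of all genes were called. The 4 calls were kept, and Cdt1, Mcm7, Rfc5, Rpa3, Rrm1 and Rrm2 joined those lower, Rrm2 with -0.82 (adjusted p = 0.0474, range over 17 alternatives 0.0474 to 0.774). Without gut 8, 4 members were higher and 2 were lower, where 16.5% and 11.1% of all genes were called. Gins1 and Pold2 joined those higher, and the median over the members was 0.02. Leaving out other guts gave 1 or 2 higher and 2 or 3 lower members.

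**Figure D4:**
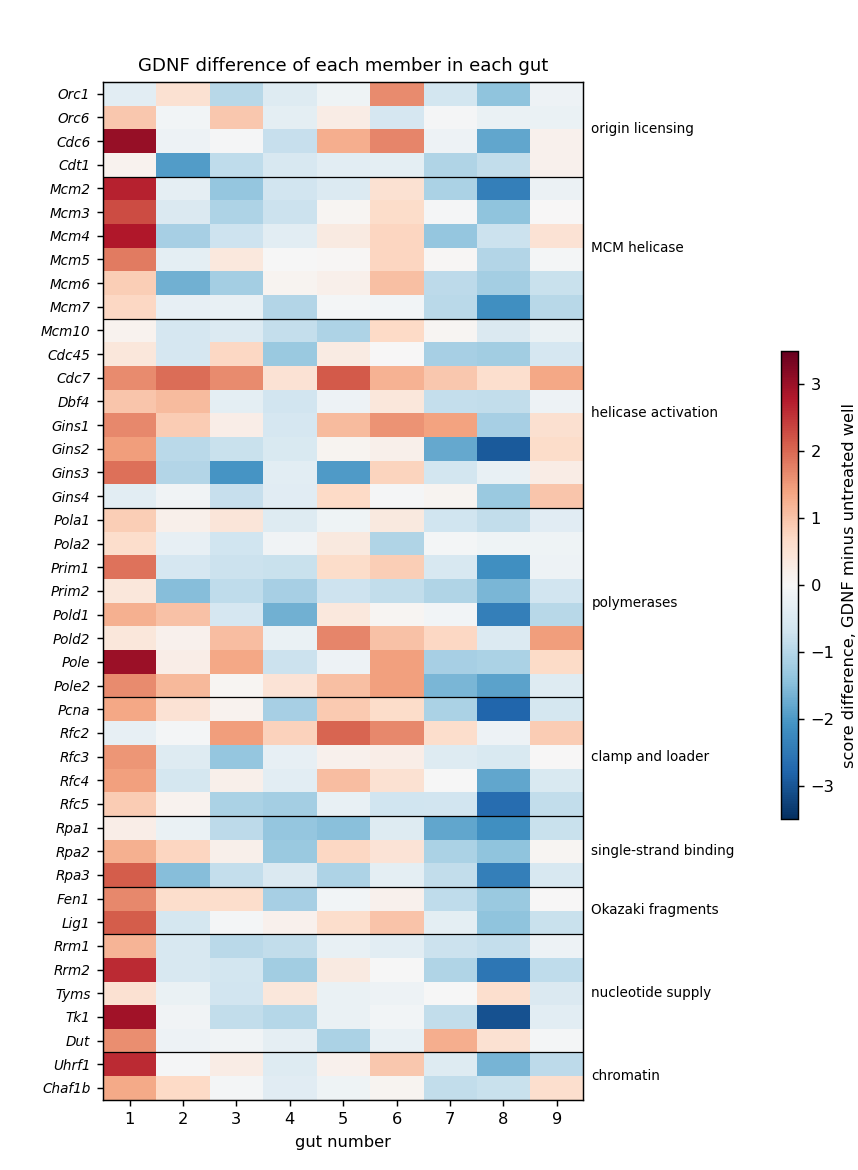
GDNF difference in score (colour, red higher and blue lower in the GDNF well) of each of the 43 members (rows, by role) in each of 9 guts (columns). Gut 1 is red in 40 members and gut 8 blue in 40, while Cdc7 is the only row with 1 colour throughout.

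Other gene lists moved with the guts too. The median GDNF difference over 23 genes of G2 and mitosis was 2.74 in gut 1, -0.98 in gut 8 and -0.49 to 0.24 in the other 7 guts. That over 8 ribosomal protein genes, only a possible sign of RNA quality, was -0.37 in gut 1, -2.06 in gut 8 and -1.64 to -1.01 in the others. With GDNF 7 of these 8 genes were lower. Of 11 targets of p53, a list that shares Cdkn1a with the G1/S genes below, 9 were lower, with medians from -1.70 to -0.14 and gut 1 nearest to 0. Of 10 neuron genes 8 were higher, with medians of 1.36 to 2.16 in all guts, and of 12 smooth muscle and mesenchyme genes 4 were lower. The spiked hybridisation controls differed by -1.87 in gut 1, -0.28 in gut 8 and -2.18 to 0.65 in the others, with a mean of -0.72 ± 0.99 (SD, n = 9). With these controls as a covariate the 4 calls were kept. The part of mitotic, neuronal or mesenchymal cells and of RNA quality in the members' differences was not tested.

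Within a batch the members varied together over the ENCC arrays. The Pearson correlation of a member with the mean of the other members had a median of 0.77 over the 17 arrays of batch 1 (0.16 to 0.96), against -0.04 for the 18150 other genes (5th to 95th percentile -0.49 to 0.56). It was above 0.5 in 33 of 43 members and in 7.00% of other genes. Over the 8 arrays of batch 2 the median was 0.62 (-0.70 to 0.94), with 23 members above 0.5 against 12.1% of other genes, and 6 members below 0. Arrays of 1 gut share cells, and batch 2 read 7 of the same RNAs again, so the arrays are not independent and no p is given. Without the 2 arrays farthest from the batch median, the untreated well of gut 1 and the GDNF well of gut 8, the median in batch 1 was 0.69. In batch 2, without the GDNF wells of guts 8 and 9, it was 0.33. These arrays were picked by the members' mean itself, and leaving out its extremes can by itself lower a correlation. The fall therefore does not show how far the value rests on those wells.

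The members with the E2F-like letters shown above had a median correlation of 0.83 in batch 1 and 0.62 in batch 2, and those with a window but no match had 0.73 and 0.66. By role, the MCM genes had a median of 0.92 in batch 1 (0.73 to 0.95), the genes of Okazaki fragments 0.90, the single-strand binding genes 0.87 and the clamp and loader 0.86. The polymerases had 0.63, licensing 0.61 and helicase activation 0.53. Prim1 had the highest value (0.96), then Mcm3 (0.95), Mcm2 and Mcm5 (0.94), and Pcna and Rrm2 (0.93). Pold2 (0.16), Tyms (0.21), Rfc2 (0.24), Orc1 (0.33) and Cdc7 (0.37) had the lowest, and Rfc2 and Cdc7 were the members higher with GDNF. Prim2 (0.57) and Rpa1 (0.48), which were lower with GDNF, also lay below the members' median of 0.77. The correlations run over both kinds of well, so a GDNF shift that the other members lack can itself lower them. In batch 2, Cdc7 had -0.49 and Dut, which removes dUTP, had -0.70.

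**Figure D5:**
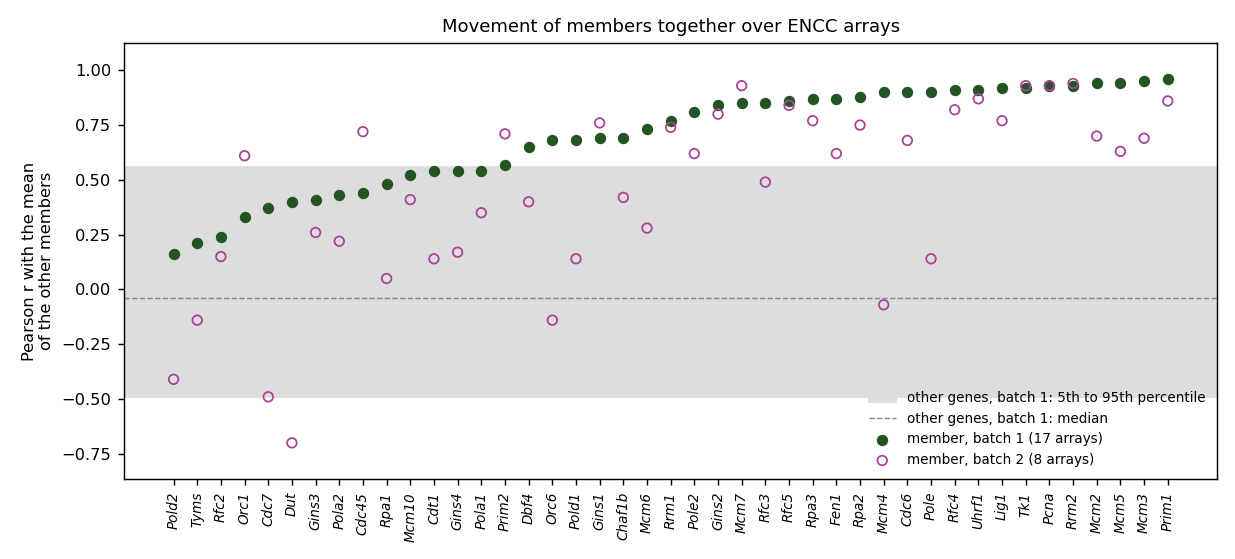
Pearson correlation (y axis) of each member with the mean of the other members, over 17 ENCC arrays of batch 1 (filled) and 8 of batch 2 (open); the grey band is the 5th to 95th percentile of the other genes in batch 1 and the dashed line their median. In batch 1 the values run from 0.16 for Pold2 to 0.96 for Prim1, and 6 members are below 0 in batch 2.

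The 10 other genes with the highest correlation with the mean over the members in batch 1 were Ccne2 (0.94), Kntc1 (0.93), Usp1, Fbxo5 (0.91), Spc24, Pbk (0.90), Trip13, Ncapg2, Bub1b and 4930579G24Rik (0.89). Ccne2 encodes cyclin E2, a cyclin of the start of S phase, and Fbxo5 encodes the inhibitor Emi1 of the anaphase-promoting complex. In batch 2 Kntc1, Fbxo5 and 4930579G24Rik again had 0.89, 0.89 and 0.91, whereas Ccne2 had 0.10 and Pbk 0.33. The correlation with the members' mean had a median of 0.82 over the G2 and mitosis list in batch 1, 0.47 over the E2F and G1/S list, 0.49 over the ribosomal protein genes and 0.31 over the p53 targets. In batch 2 these medians were 0.72, 0.27, 0.61 and 0.43. The members had 0.77 in batch 1 and 0.62 in batch 2. So the mitotic list followed the members' mean about as closely as single members did in both batches, and the ribosomal list in batch 2. The median correlation over the neuron genes was 0.00 in batch 1 and -0.39 in batch 2. Over the ENCC genes it was -0.02 and 0.41, over the epithelium genes -0.08 and -0.09 and over the mesenchyme genes -0.13 and 0.05. Over the 37 other replication factors described next it was 0.42 and 0.20.

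Replication genes outside the 43 were counted in the same way. Of 37 other replication factors, 22 were lower and 0 higher in untreated wells (median -1.01), and 20 were lower and 0 higher in GDNF wells (median -0.97). At an unadjusted p under 0.05 in limma, 1 and 0 were higher. With GDNF, 2 were higher and 6 lower. Dck, a kinase that salvages deoxynucleosides, rose by 1.47 (higher in 7 of 9 guts), and Atad5, which unloads the clamp, rose by 0.63 in 9 of 9 guts. Mcmbp, which binds MCM subunits, and Pole4, an accessory subunit of polymerase epsilon, fell by 0.95 each in 9 of 9 guts, Dtymk, thymidylate kinase, fell by 0.86 (lower in 7 of 9 guts), and Top1, a topoisomerase, fell by 0.74 in 9 of 9 guts. All G2 and mitosis genes had differences below 0 against whole gut, and 19 of 23 were lower in untreated wells and 22 of 23 in GDNF wells. With GDNF limma called 0 of the 23, and 0 had an unadjusted p under 0.05.

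The genes that control entry into S phase did not all follow the members. Of 23 E2F and G1/S genes, 10 were lower and 4 higher in untreated wells than in whole gut, and 11 were lower and 3 higher in GDNF wells. Cdkn1a, the inhibitor p21 of cyclin-dependent kinases and a p53 target, was higher in both kinds of well (1.85 and 0.86), as was Ccnd1, cyclin D1 (2.04 and 0.97). E2f1 and E2f2, activators of replication genes, were lower in both (-0.81 and -0.79, -1.49 and -1.86). With GDNF 0 rose and 6 fell in limma, and 0 were higher at an unadjusted p under 0.05. Cdkn1a fell by 1.44 and Ccnd1 by 1.24, each in 9 of 9 guts. Tfdp1, the partner of E2F proteins, fell by 1.14, the retinoblastoma proteins Rb1 and Rbl2 fell by 1.09 and 0.80, and Ccne1, cyclin E1, fell by 0.95. E2f1 (-0.44, adjusted p = 0.349) and E2f2 (0.13, adjusted p = 0.83) did not pass.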

How the data were processed

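The authors deposited 1 table of values for 45101 probe sets on 33 Affymetrix arrays. Per the submitters' processing notes RMA was used, and no version is given. The deposited value is a score: sorted within an array, the values match the quantiles of a normal distribution at evenly spaced ranks to within 5e-06. The scaling on the RNAs read in both batches was also read from the values and is recorded in no label. The design had been written for log2 values. The scores needed no other test, but no trend in brightness was used and no probe set was left out as dim.

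The platform annotation gave 1 gene symbol for 34958 probe sets, several for 932 and none for 9211. Without the 64 control probe sets this left 34945 for 18193 genes, and probe sets of a gene were averaged. GDNF was tested on 9 differences within gut and batch (guts 3, 8 and 9 as the mean of both batches, gut 2 from batch 2), and whole gut against ENCC wells on batch 2 alone, in 1 fit of 3 groups. The pairing of wells by gut comes from the labels' treatment protocol. Both used limma 3.58.1 (lmFit and eBayes, statmod 1.5.0, R 4.3.3) over all genes, with Benjamini-Hochberg adjusted p-values and a threshold of 0.05. The fits were tested on simulated data. The simulation for whole gut gave a gene the same SD in all groups, unlike these data. It therefore does not show that the whole gut p-values hold. The number of arrays limits the precision.

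The members and gene lists were chosen with earlier results of these data known. Values sample by sample were given for members past the GDNF threshold, the 3 largest differences from whole gut in each comparison, the largest and smallest SD over guts, and Mcm2, Pcna and Rrm2. Members just outside the GDNF threshold, and others beside a group's count, were named after their values were seen. The alternatives were the summary over probe sets, robust eBayes, batches alone, hybridisation controls as a covariate, the replicate block, the groups in the fit, and leaving out each sample.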

Additional observations from a re-analysis of the deposited data

Results flagged for a closer look

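Of 61 groups of samples checked, 5 held a sample far from the others, and chance gives about 1 in 20. The groups share guts and arrays, so the flags are not independent of each other. The median GDNF difference over the 23 G2 and mitosis genes was 2.74 in gut 1, against -0.98 to 0.24 in the other 8 guts. Tk1 had a GDNF difference of 2.94 in gut 1, against -3.04 to -0.10 in the others, and Prim2 one of 0.41 in gut 1, against -1.60 to -0.67. Rpa1 scored -0.83 in the GDNF well of gut 3 in batch 2, against 0.02 to 0.05 in the other 3 wells. Mcm2 scored 2.32 in whole gut 4, against 2.01 to 2.15 in the other 7.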

How the results depend on the processing

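The comparisons with whole gut kept 0 members higher under every alternative run, and the count of lower members stayed within 1.5 times of 30 and 36. Leaving out each sample gave 23 to 31 lower members and a median of -1.27 to -1.00 for untreated wells, and 34 to 38 and -1.68 to -1.36 for GDNF wells. With the most reproducible probe set of each gene the median for GDNF wells was -2.06. With the gut number as a replicate block the counts were again 30 and 36, and the block changed no call of a member.

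The small GDNF counts moved more. The most reproducible probe set gave 4 lower members, batch 1 alone gave 1 higher, and leaving out the batch 2 array of the untreated well of gut 3 gave 1 higher. Batch 2 alone, with 4 guts, gave 0 higher and 0 lower members, as limma called 0 of all genes there, while 3516 genes and 3 members had an unadjusted p under 0.05. Leaving out each gut gave 1 to 4 higher members, 2 to 8 lower members and a median of -0.27 to 0.02. Without the pairing of wells (no replicate block) 1 member was higher, Rfc2 having lost its call, and 2 were lower. The 3 other calls held in 16 of 17 alternatives each, and were lost in batch 2 alone. The cause of these changes was not tested.

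The correlation of the members in batch 1 was 0.69 to 0.84 and in batch 2 0.33 to 0.67 under 3 alternatives chosen after seeing the data. Scores keep no brightness, so the signal over background is not known for any member.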
